A study of Saccharomyces cerevisiae with 44 samples.

Results

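The RNAs that copurified with Hpr1 and Yra1 were compared with the total RNA of the same wild-type yeast cells. The comparison used 6 of the 30 libraries of the count table, namely the 3 Hpr1/Yra1 pulldowns and the 3 total RNA libraries that the labels give to the Hpr1-PrA strain, matched by replicate number. The 6 libraries made up 2 of the 10 groups of the study and came from 9 of its 44 sequencing samples. The libraries were chosen by their labels and not by any measured value.

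In the study, messenger ribonucleoproteins (mRNPs) were purified from Saccharomyces cerevisiae in a pair of steps and their RNA was counted by 3′ tag sequencing. The Hpr1-PrA strain carried HPR1-PPX-PrA, a fusion of Hpr1 to protein A through a protease site, together with SNAPf-YRA1 in a BY4741/2 background, and THO2 was intact. SNAPf-YRA1 is carried by every strain used here, the control strain included. Cells were grown in YPD at 30 °C and cryo-ground, and the lysate was crosslinked with 0.2% formaldehyde. For the pulldown, complexes were captured on IgG beads through protein A, released with HRV3C protease and captured again with an anti-Yra1 antibody. Total RNA was taken from 7.5% of the crosslinked lysate volume. For comparison, the untagged strain (No tag, SNAPf-YRA1 without a protein A fusion) and the Cbp80-PrA strain went through the same steps, with 3 pulldown and 3 total RNA libraries each.

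Hpr1 is a subunit of the THO complex, which travels with RNA polymerase II and, with the DEAD-box protein Sub2 and the RNA-binding adaptor Yra1, forms TREX, the complex that couples transcription to mRNA packaging and export. Yra1 also binds the export receptor Mex67, and both Hpr1 and Yra1 are found mainly in the nucleus. A pulldown through both proteins is therefore meant to sample RNA in complexes that hold both, whereas total RNA is dominated by mature cytoplasmic transcripts. The untagged pulldowns also gave 44389 to 71037 gene counts, so background RNA can be part of any pulldown.

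The Hpr1/Yra1 pulldowns held 78186, 140468 and 98504 gene counts, and the total RNA libraries held 511110, 496389 and 457364. The total RNA columns combine runs on 2 kinds of sequencer, whereas the pulldowns were run on 1 of these only, so sequencer and kind of library cannot be told apart. Ratios of pulldown to total RNA were repeatable: across 1565 genes with at least 10 counts in all 6 libraries, the log2 ratios of any pair of replicates correlated at 0.924 to 0.948, a description over genes that share libraries. Because a pulldown captures an unknown share of the RNA of the cell, all values are relative abundances, in counts per 1000000 gene counts (CPM), and a ratio above 1 says that an RNA took a larger share of the pulldown than of total RNA.

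A gene was called when edgeR's quasi-likelihood test gave an adjusted p under 0.05 and the log2 fold change was above 1 or below -1. Of 4359 genes tested, 1127 (25.9%) were higher in the Hpr1/Yra1 pulldown than in total RNA and 1015 (23.3%) were lower, with a median log2 fold change of -0.03. The filter on low counts, set at 33.5 CPM in 3 libraries, let 859 of these genes in through the pulldown alone. Such a gene could hardly be lower in the pulldown, and 602 of them were higher and 0 lower. Among the 3500 genes that passed on total RNA alone, 525 (15.0%) were higher and 1015 (29.0%) lower, and the median log2 fold change was -0.35. Gene groups are described below over these 3500 genes, a restriction added after the data had been seen.

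Apart from ribosomal RNA, the largest ratios by class of RNA were those of tRNA and of mitochondrial transcripts. Reads of tRNA genes took 1.6, 1.86 and 1.44% of gene counts in the pulldowns, against 0.254, 0.324 and 0.262% in total RNA, a ratio of 5.83. Mitochondrially encoded RNAs took 0.0972, 0.0925 and 0.0782% in the pulldowns and 1.58, 1.62 and 1.64% in total RNA, a ratio of 0.0554. Mitochondrial RNA is made in a compartment that Hpr1 and Yra1 do not enter. The pulldown values did not overlap those of total RNA. Mitochondrially encoded RNAs were lower in the untagged strain as well, at 0.166% of the pulldowns and 1.54% of total RNA, and the cause was not tested.

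Ribosomal protein mRNAs took 19.2, 17 and 21.4% of the pulldowns and 13.9, 13 and 13% of total RNA. The spliceosomal RNAs took 0.526% ± 0.0305 of the pulldowns and 1.08% ± 0.0496 of total RNA (SD, n = 3 each). Most of their share in total RNA was that of LSR1. The Ty retrotransposons took 0.0557% ± 0.00625 of the pulldowns and 0.104% ± 0.00651 of total RNA. Box C/D and H/ACA snoRNAs, the guides of rRNA modification, made up 1.54% ± 0.13 of the pulldowns and 1.35% ± 0.099 of total RNA. Each of these classes was apart in all 6 libraries (exact permutation test, two-sided, p = 0.1, the smallest that 3 against 3 libraries can give). Genes with an intron that do not encode ribosomal proteins were not apart, at 2.37% ± 0.0702 in the pulldowns and 2.33% ± 0.0311 in total RNA (exact p = 0.4). Ribosomal RNA reads had been removed before counting and are not read further as a class.

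The 10 genes with the largest fold change under the naming rule, which required a mean of 20 CPM and no overlap between the groups, were 6 tRNA genes, the 5S rRNA gene RDN5-1, TIM17, HXT7 and RPL2B. All 10 were under the filter level in every total RNA library. The tRNA gene YNCF0008C had 141, 142 and 142 CPM in the pulldowns and no count in total RNA, and was at least 69.3-fold higher against a floor of 3 counts over the 3 total RNA libraries. TIM17, a channel subunit of the mitochondrial inner membrane translocase, had 128, 171 and 203 CPM in the pulldowns, against 5.87, 2.01 and 2.19 CPM in total RNA. The difference for TIM17 was 5.47 on the log2 scale (SE 0.46, edgeR adjusted p = 1.54e-08). HXT7, a high-affinity glucose transporter with a near-identical copy, had 1 count in all of total RNA, and the ratio of 97.0 has a 95% interval from counting error alone of 15.6 to 4010. RPL2B, whose reads may be divided with its near-identical partner, had 320, 356 and 1460 CPM in the pulldowns and 27.4, 18.1 and 6.56 CPM in total RNA, with replicate 3 far from the other 2 in both.

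Among genes that passed on total RNA alone, RPS12, which encodes a protein of the small ribosomal subunit, had 7490, 7210 and 8080 CPM in the pulldowns and 458, 389 and 396 CPM in total RNA. The libraries of each kind lay close together, and the fold change was 4.21 on the log2 scale (SE 0.14, edgeR adjusted p = 4.08e-13). PMA1, which encodes the proton pump of the plasma membrane, was among the most abundant mRNAs of the pulldown, with 8360, 9750 and 8560 CPM, against 1540, 1720 and 1720 CPM in total RNA. Its log2 fold change was 2.43 (SE 0.12, edgeR adjusted p = 1.95e-11), without overlap. HSP30, which encodes a stress-induced membrane protein that acts on Pma1, had 857, 947 and 904 CPM in the pulldowns and 108, 66.5 and 101 CPM in total RNA, a log2 fold change of 3.33 (SE 0.18, edgeR adjusted p = 7.03e-11). HTA1, a histone H2A gene with a near-identical copy, had 2400, 1910 and 1740 CPM in the pulldowns and 72.4, 72.5 and 72.2 CPM in total RNA. It had the log2 fold change 4.79 (SE 0.18). SCR1, the RNA of the signal recognition particle, had 3020, 3720 and 3310 CPM in the pulldowns, against 826, 1370 and 1440 CPM in total RNA, and was 1.51 higher on the log2 scale (SE 0.14, edgeR adjusted p = 5.69e-08).

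**Figure D1:**
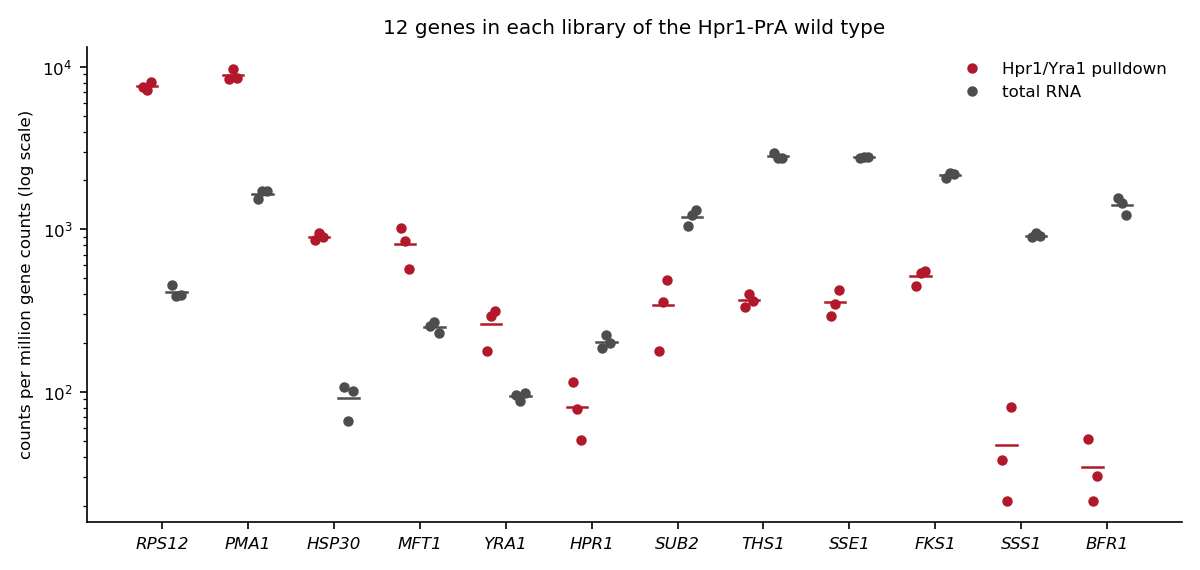
CPM (log axis) of 12 genes in each of the 3 Hpr1/Yra1 pulldowns (red) and 3 total RNA libraries (grey), with bars at the means. No gene drawn has overlapping groups. The pulldown points of RPS12 lie at 7210 to 8080 CPM above total RNA points of 389 to 458 CPM, whereas those of BFR1 lie at 21.4 to 51.2 CPM below total RNA points of 1230 to 1560 CPM.

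At the other end, GNA1, which encodes an acetyltransferase of the chitin precursor pathway, had 0 counts in all 3 pulldowns and 102, 94.7 and 112 CPM in total RNA, at least 10.8-fold lower against a floor of 3 counts over the pulldowns. TPM2, the minor tropomyosin of actin cables, had 1 count in the pulldowns together and 546, 469 and 485 CPM in total RNA. TPM2 was 159-fold lower, with a 95% counting interval of 28.4 to 6290. BFR1, which encodes a protein associated with mRNPs on polysomes, had 51.2, 21.4 and 30.5 CPM in the pulldowns and 1560, 1460 and 1230 CPM in total RNA. This transcript fell by 5.45 on the log2 scale (SE 0.27, edgeR adjusted p = 1.95e-11), and every pulldown was far below every total RNA library. In the untagged strain the log2 ratio was -4.33 for BFR1 and -0.74 for GNA1. The other members of the 10 lowest were LSM1 and CBF1, which encode a decapping activator and a centromere-binding factor, EOS1, TUB3, SLK19, the snoRNA SNR84 and the Ty gene YLR227W-B. SNR84 was the most abundant of them in total RNA, at 3310, 3650 and 4150 CPM, against 128, 121 and 183 CPM in the pulldowns. The ratio of TUB3, an alpha-tubulin gene, is uncertain because it overlaps a gene on the other strand and how strand was handled in the counting is not given in the sources used here.

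The A-rich stretches of coding sequences were compared with the ratio. For each gene the 20 coding nucleotides with the most A bases were found in the reference genome (build R64). The measure was chosen after the values had been seen and is given as a description. The windows of 10 transcripts described here, picked as illustrations after their values were seen, are shown because 3′ tag libraries are primed with oligo(dT), which can anneal to A-rich stretches as well as to poly(A) tails. Each is written 5′ to 3′ on the coding strand, with A bases in capitals. The first 6 come from transcripts that were lower in the pulldown and lie at chrXV:718653-718672 (minus strand), chrIX:89584-89603 (minus), chrXV:714046-714065 (plus), chrII:530395-530414 (plus), chrIX:212579-212598 (plus) and chrXVI:350607-350626 (minus). The last 4 come from transcripts that were higher and lie at chrXV:1028372-1028391 (minus), chrIII:156190-156209 (minus), chrX:147338-147357 (plus) and chrVII:482368-482387 (minus).
BFR1: AAAAAgAtAAAgAAAAttAA
TPM2: AAAAAgAAAAcgAgAttAAA
SLK19: AAAAAAtAttAcAAgAAAAA
MAK5: AAAAAAtAAAAAtAAAAAAA
THS1: AAAtAAgAAAgAAAAcAAAA
SSE1: AAttgAAAAAgAAAAtgAAA
RPS12: gctAAcgAcccAgAAAAcAA
HSP30: AAAcAAAAgAAgctgttccA
TIM17: AAggccgttAgAAAgAgAgA
PMA1: ttgAAAAgAAgAAAgAAgtA

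These windows held 15 A bases in BFR1 and SLK19, 14 in TPM2 and SSE1, 18 in MAK5 and 16 in THS1, against 10 in RPS12 and HSP30, 9 in TIM17 and 12 in PMA1. Other transcripts went the other way, among them ATP17, NPL3 and SUB2, which were lower with 9, 11 and 12 A bases, and VPS16 and ARX1, which were higher with 15 and 14. VPS16 passed the count filter through the pulldown alone, so it could hardly have been lower. ARX1 was too low to be tested in the untagged strain. The groups of genes were therefore read over the 3259 genes that passed on total RNA in both the Hpr1-PrA and the No tag strain. The median log2 ratio of pulldown to total RNA was 0.64 for the 84 genes with 10 or fewer A bases, 0.16 for the 524 genes with 12, -0.09 for the 764 genes with 13, -0.90 for the 522 genes with 15 and -0.78 for the 222 genes with 16 or more. The ratio in the untagged strain, which has no protein A to hold on the first beads, had medians of 1.05, 0.45, -0.23, -1.42 and -1.62 for these groups of genes. The medians at 12 A bases depended on the alternative, down to -0.04 in the Hpr1-PrA strain and -0.16 in the untagged strain. Across 3424 coding genes that passed on total RNA in the Hpr1-PrA strain, the Spearman correlation of the ratio was -0.35 with the most A bases, -0.06 with the most T bases and 0.23 with GC content. These points share all 6 libraries and differ together in base composition.

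Lower medians with more A bases were present in each of the 4 groups by coding length under 4800 nucleotides. Among the genes that passed on total RNA alone and had 1200 to under 2400 coding nucleotides, the median was 0.35 for 231 genes with 12 or fewer A bases and -0.65 for 715 genes with 14 or more. For genes under 600 nucleotides the medians were 0.34 and -0.65. Single transcripts departed from it. GTR1, a GTPase upstream of TORC1 that passed through the pulldown alone, had a window with 14 A bases and a log2 fold change of 3.85, whereas QCR7, a subunit of respiratory complex III, had 11 and a log2 fold change of -4.33. The part of A-rich stretches in the abundance of a transcript in either kind of library was not tested.

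**Figure D2:**
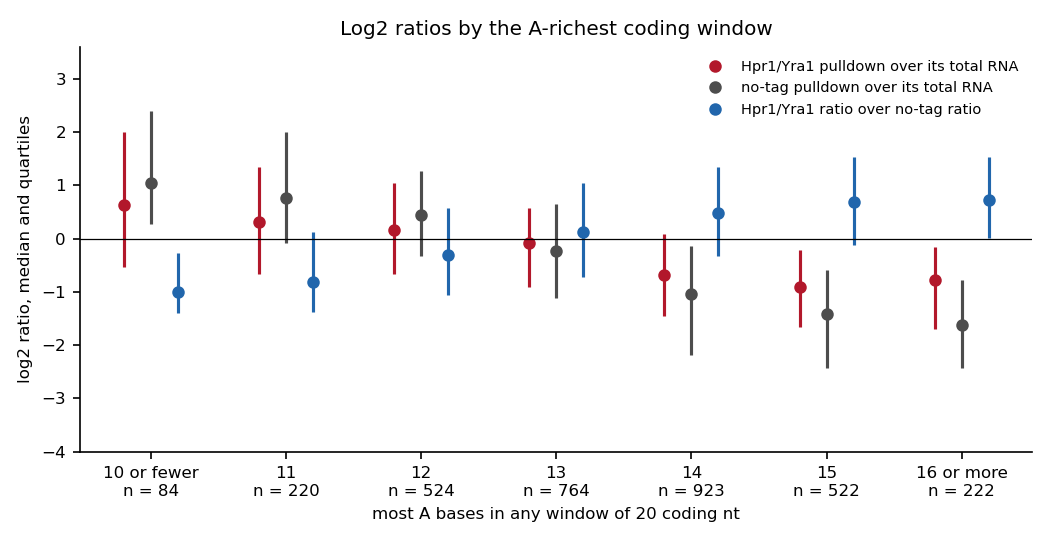
Median and quartiles of 3 log2 quantities for 3259 genes grouped by the most A bases in any window of 20 coding nucleotides, namely Hpr1/Yra1 pulldown over total RNA (red), no-tag pulldown over total RNA (grey) and the difference of these log2 ratios (blue). The red medians run from 0.64 at 10 or fewer A bases to -0.90 at 15, the grey medians reach -1.62 at 16 or more, and the blue medians run the other way, from -1.0 to 0.73.

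Gene groups of known function lay on both sides of total RNA. The enzymes of glycolysis and ethanol fermentation had the highest median among the groups of mRNAs listed, 1.80 on the log2 scale, against -0.35 over all 3500 genes, and 12 of 18 were higher and 0 lower. ENO1, an enolase gene with a near-identical copy, had 1790, 1750 and 2050 CPM in the pulldowns and 309, 258 and 297 CPM in total RNA. HXK2, the main hexokinase of glucose-grown cells, had 627, 847 and 1090 CPM in the pulldowns, against 145, 141 and 138 CPM in total RNA, a log2 fold change of 2.59 (SE 0.18, edgeR adjusted p = 1.36e-09). Neither gene overlapped between the kinds of library. In the untagged strain the 18 genes of this group had a median of 1.25 (11 higher, 1 lower). HXK2 had a log2 ratio of 2.96 there. The difference between the strains had a median of 0.40 (8 of 18 higher, 1 lower). The 39 heat shock proteins and chaperones had a median of 0.70 (13 higher, 7 lower). The lower members included SSE1, the nucleotide exchange factor of cytosolic Hsp70, at 294, 349 and 426 CPM in the pulldowns and 2760, 2790 and 2770 CPM in total RNA. The median was 0.57 for 29 plasma membrane transporters (13 higher, 1 lower) and 0.68 for 21 general stress response genes (8 higher, 2 lower). Cell wall and surface proteins were divided around a median of 0.35, and 11 of 30 were higher and 8 lower. PST1, a wall protein made under wall stress that did not pass on total RNA alone, had 435, 662 and 599 CPM in the pulldowns and 33.3, 62.5 and 37.2 CPM in total RNA, while FKS1, the catalytic subunit of glucan synthase, had 448, 541 and 558 CPM in the pulldowns, against 2080, 2220 and 2180 CPM in total RNA.

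Most box snoRNAs and tRNAs that passed on total RNA were higher. The 38 box snoRNAs had a median log2 fold change of 1.45 (26 higher, 7 lower). SNR84 and SNR86, H/ACA guides that are abundant in total RNA, were among the lower ones. SNR86 had 192, 263 and 325 CPM in the pulldowns and 3220, 3780 and 3920 CPM in total RNA. In the untagged strain 24 of 50 box snoRNAs tested were higher and 6 lower, with a median of 1.10. The difference between the strains had a median of 0.55 for box snoRNAs (6 of 37 higher, 1 lower). Over the 3374 genes that passed on total RNA in both strains it was 0.23, with 14.6% higher. Of the 275 tRNA genes in the table, 58 were tested and 12 passed on total RNA alone, of which 10 were higher and 1 lower. Among the spliceosomal RNAs, LSR1, the U2 snRNA, had 2760, 3150 and 2580 CPM in the pulldowns, against 9250, 9720 and 10200 CPM in total RNA, and fell by 1.77 on the log2 scale (SE 0.12, edgeR adjusted p = 8.42e-10). SNR14, the U4 snRNA, passed through the pulldown alone, with 51.2, 57 and 152 CPM there and 1.96, 4.03 and 2.19 CPM in total RNA. Of the 5 spliceosomal RNAs tested only 3 passed on total RNA alone, of which 1 was higher and 1, LSR1, was lower. The others entered through the pulldown and could hardly be lower. The lower share of the class was that of LSR1. In the untagged strain the class took 0.39% of the pulldowns and 1.02% of total RNA.

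Apart from Ty genes, the aminoacyl-tRNA synthetases had the lowest median among the groups of nuclear genes listed, -1.65 on the log2 scale, and 0 of 20 were higher and 16 lower. THS1, the threonyl-tRNA synthetase, had 333, 399 and 365 CPM in the pulldowns and 2930, 2750 and 2750 CPM in total RNA, and fell by 2.92 on the log2 scale (SE 0.16, edgeR adjusted p = 6.11e-11). The 77 ribosome biogenesis factors had a median of -1.15 (5 higher, 43 lower). MAK5, a DEAD-box helicase of the large subunit pathway, had 128, 121 and 81.2 CPM in the pulldowns and 959, 1030 and 1110 CPM in total RNA. REA1, the dynein-like ATPase that strips factors from large subunit precursors and the longest of the genes read by rule at 14733 coding nucleotides, had 243, 285 and 315 CPM in the pulldowns, against 1840, 1970 and 2040 CPM in total RNA. Both lay without overlap below total RNA. The log2 ratios of THS1, MAK5 and REA1 in the untagged strain were -2.03, -3.2 and -3.28, against -2.92, -3.22 and -2.78 with the tag.

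The median of 33 translation factors was -1.0 (4 higher, 16 lower). TEF1, a gene of the elongation factor eEF1A with a near-identical copy, had 2370, 2210 and 2650 CPM in the pulldowns and 325, 316 and 249 CPM in total RNA. SUP45, the release factor eRF1, had 141, 135 and 223 CPM in the pulldowns and 1760, 1770 and 1870 CPM in total RNA, so members of the same list lay on both sides. Nuclear pore proteins and karyopherins (2 of 40 higher, 18 lower, median -0.94), cell polarity and morphogenesis (2 of 55 higher, 24 lower, median -0.90) and the secretory pathway (3 of 44 higher, 17 lower, median -0.77) had more lower than higher members. Over the members tested in the untagged strain, the medians of these groups were -0.94, -1.23 and -0.46, in this order. Lower genes also outnumbered higher ones over all 3500 genes (15.0% higher, 29.0% lower, median -0.35). SSS1, a subunit of the Sec61 translocon, had 38.4, 21.4 and 81.2 CPM in the pulldowns and 896, 945 and 905 CPM in total RNA, a log2 fold change of -4.35 (SE 0.29, edgeR adjusted p = 7.56e-10). Of 30 cyclins and cell cycle regulators, 1 was higher and 12 were lower. The higher one was CLN3, the G1 cyclin that starts the cycle, at 256, 278 and 223 CPM in the pulldowns, against 64.6, 60.4 and 85.3 CPM in total RNA. The 33 proteasome subunits had a median of 0.09 (4 higher, 5 lower).

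All 9 mitochondrially encoded genes that were tested and all 4 Ty genes that passed on total RNA were lower. Their fitted medians were -5.60 and -4.33, and with genes at 0 in the pulldown set to the floor of 3 counts the mitochondrial median was -3.01. Only 5 of 91 Ty genes were tested, and 1 of these, which passed through the pulldown alone, was higher. In the untagged strain 6 of 7 mitochondrially encoded genes tested were lower.

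**Figure D3:**
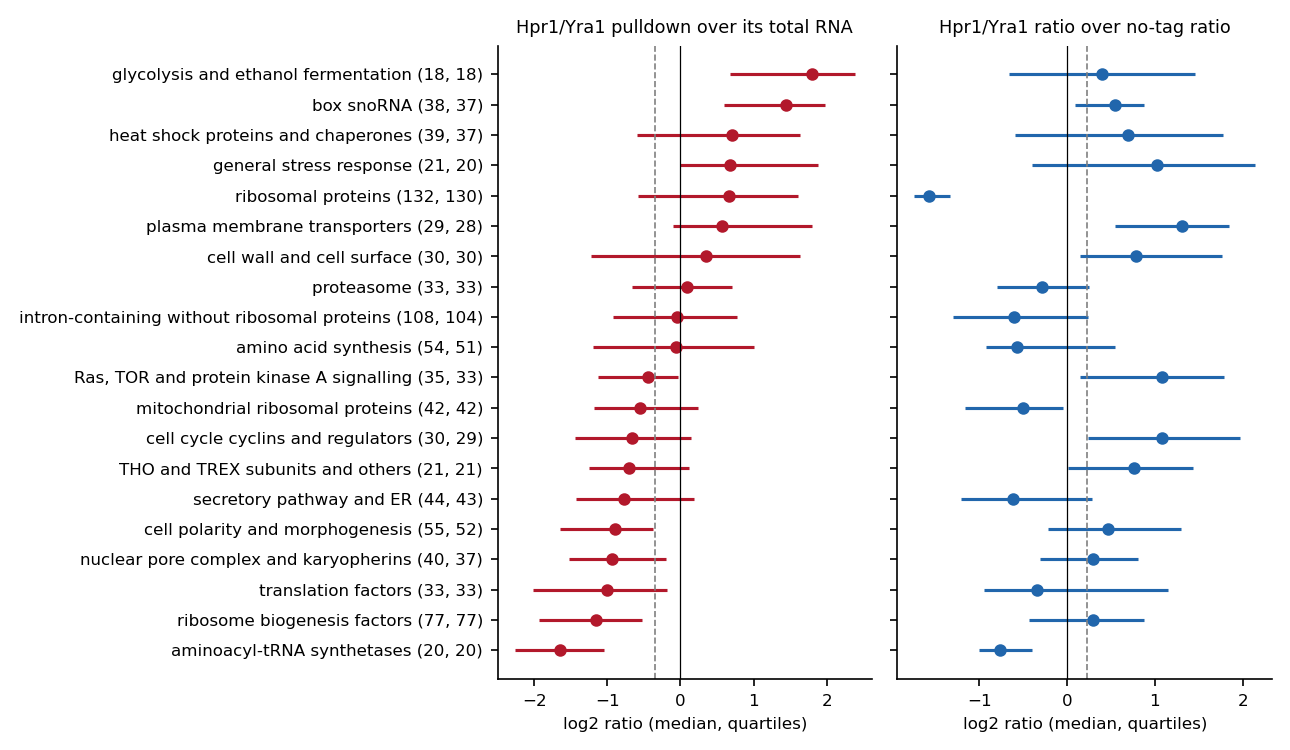
Median and quartiles of the log2 fold change for 20 gene groups, over genes that passed the count filter on total RNA alone (numbers of genes per panel in brackets), for Hpr1/Yra1 pulldown over its total RNA (left, red) and for that ratio over the no-tag ratio (right, blue). Dashed lines mark the medians over all such genes, -0.35 and 0.23. The groups are ordered by the left panel, from glycolysis at 1.80 to aminoacyl-tRNA synthetases at -1.65, and ribosomal proteins are lowest on the right at -1.57.

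The mRNAs of the purified machinery lay on both sides of total RNA, as genes in general did. Over 21 THO and TREX subunits, cap-binding complex subunits and export adaptors, the median was -0.71 (4 higher, 8 lower). Over all 3500 genes it was -0.35, with 15.0% higher and 29.0% lower. MFT1, a THO subunit, had 1020, 854 and 569 CPM in the pulldowns and 256, 270 and 232 CPM in total RNA, a log2 fold change of 1.67 (SE 0.17, edgeR adjusted p = 1.28e-07). YRA1, whose mRNA holds a long regulatory intron, had 179, 292 and 315 CPM in the pulldowns and 95.9, 88.6 and 98.4 CPM in total RNA, and was 1.5 higher on the log2 scale (SE 0.24, edgeR adjusted p = 2.74e-05). CDC31, a centrin of the TREX-2 complex, had 729, 612 and 487 CPM in the pulldowns, against 117, 103 and 96.2 CPM in total RNA. HPR1 itself, which carries the tag, had 115, 78.3 and 50.8 CPM in the pulldowns and 186, 224 and 199 CPM in total RNA, and fell by 1.37 on the log2 scale (SE 0.29, edgeR adjusted p = 0.000485). The fusion was integrated at the gene and may change the 3′ end that 3′ tag reads count, so the HPR1 values in this strain are uncertain. SUB2 had 179, 356 and 487 CPM in the pulldowns and 1050, 1220 and 1320 CPM in total RNA, a log2 fold change of -1.82 (SE 0.2, edgeR adjusted p = 3.13e-07). THO2 was not called, at 64, 128 and 122 CPM in the pulldowns and 172, 167 and 151 CPM in total RNA (log2 fold change -0.58, edgeR adjusted p = 0.0769), and it overlaps another gene on the same strand. TEX1 was too low to be tested. NPL3, an SR-like protein of export, and STO1, which encodes Cbp80, were lower, with log2 fold changes of -1.57 and -1.39. In the untagged strain the log2 ratios of MFT1, YRA1 and CDC31 were -0.52, 1.05 and 1.76, against 1.67, 1.5 and 2.53 with the tag. Those of HPR1, SUB2 and NPL3 in the untagged strain were -2.64, -0.21 and -3.26.

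Ribosomal protein genes were spread widely around a median of 0.67, and 53 of 132 were higher and 21 lower. Most exist as a pair of near-identical paralogs, whose 3′ ends outside the coding region differ more than the coding sequences. In 56 pairs both paralogs were tested. In 34 of these pairs the paralogs differed by more than 1 on the log2 scale and in 20 by more than 2, with a median difference of 1.42. Both paralogs were higher in 10 pairs, both were lower in 1, and 1 was higher and the other lower in 7. In 46 pairs the coding sequences were nearly identical, so that reads may have been divided between them and the difference is uncertain. RPS7A and RPS7B, chosen after their values were seen, did not meet that criterion. RPS7A had 409, 327 and 1010 CPM in the pulldowns and 90, 92.7 and 67.8 CPM in total RNA (log2 fold change 2.71, SE 0.35, edgeR adjusted p = 6.73e-05), whereas RPS7B had 12.8, 35.6 and 40.6 CPM in the pulldowns and 196, 189 and 168 CPM in total RNA (log2 fold change -2.53, SE 0.37, edgeR adjusted p = 1.05e-05). The 40 ribosomal protein genes without a near-identical copy had a median of 0.94, with 20 higher and 7 lower. The median was 0.69 for 85 genes with an intron and 0.62 for 47 without.

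The median of the 108 other intron-containing genes was -0.05 (23 higher, 25 lower). DBP2, a DEAD-box helicase that controls its own level through its intron, had 729, 918 and 995 CPM in the pulldowns and 90, 115 and 120 CPM in total RNA, a log2 fold change of 3.03 (SE 0.16, edgeR adjusted p = 5.99e-11). GIM4, a subunit of the prefoldin chaperone, had 76.7, 21.4 and 81.2 CPM in the pulldowns and 432, 425 and 402 CPM in total RNA, a log2 fold change of -2.93 (SE 0.30, edgeR adjusted p = 1.81e-07). The 5′ splice sites of YRA1, DBP2 and GIM4 are shown as 10 exon and 20 intron bases of build R64, with the first 6 intron bases in capitals, because these genes lay on both sides of total RNA. They lie at chrIV:1236833-1236862, chrXIV:414902-414931 and chrV:148185-148214, all on the plus strand.
YRA1: tgctgtaagaGTATGTtaatacgtgaaatg
DBP2: agaggtatcgGTATGTtaaaattttctcca
GIM4: aggaacaacgGTATGCaaaatttcgatctc

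The first 6 bases were GTATGT in 205 of 281 introns of coding genes (73.0%), read on the gene's strand. Outside the ribosomal protein genes, the median log2 fold change was -0.05 for 88 genes whose first intron starts with GTATGT and -0.07 for 20 genes whose first intron starts otherwise, over genes that passed on total RNA. The 3′ tag reads do not show whether a molecule was spliced.

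Long coding sequences were lower in the pulldown. Over the 3259 genes that passed on total RNA in both strains, the median log2 ratio of pulldown to total RNA was -0.06 for 474 genes under 600 nucleotides, -0.24 for 899 genes of 600 to under 1200, -0.36 for 1193 genes of 1200 to under 2400, -0.67 for 614 genes of 2400 to under 4800 and -1.22 for 79 genes of 4800 and over. Of the 79 longest, 1 was higher and 50 were lower. IRA2, a GTPase activator of Ras with 9240 coding nucleotides, had 153, 171 and 173 CPM in the pulldowns and 407, 453 and 520 CPM in total RNA, and fell by 1.46 on the log2 scale (SE 0.19, edgeR adjusted p = 4.04e-06). TAO3, a polarity gene with 7131 coding nucleotides, had 76.7, 85.4 and 40.6 CPM in the pulldowns and 178, 169 and 136 CPM in total RNA, a log2 fold change of -1.22 (SE 0.30, edgeR adjusted p = 0.00166). Length moved with A content, since 71 of the 81 tested genes of 4800 nucleotides and over had a window with 14 or more A bases, and their parts in the ratio cannot be told apart for these genes. The level in total RNA moved with the ratio too. In the 3 upper of 5 equal groups of genes ordered by the total RNA of the untagged strain, the groups in which every gene passed the filter on total RNA, the median was -0.16, -0.56 and -0.96 from the lower to the upper level.

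To ask which of these ratios depended on the tag, the ratio in the Hpr1-PrA strain was tested against the ratio in the untagged strain, the background of the purification. The untagged pulldowns held 44389 to 71037 gene counts. Ribosomal protein mRNAs were 19.2% ± 2.23 of the gene counts of the Hpr1/Yra1 pulldowns and 43.1% ± 2.1 of those of the untagged pulldowns, and tRNA genes were 1.63% ± 0.209 and 0.22% ± 0.0453 of them (SD, n = 3 each). By the interaction of kind and strain, 642 of 4607 genes (13.9%) had a higher ratio in the Hpr1-PrA strain and 432 (9.38%) a lower one, with a median difference of 0.32. These calls depended on scaling: by total gene counts in place of TMM, the median difference was 0.87 and the counts were 1249 higher and 147 lower. They also depended on replicates. Without replicate 2 of both strains 235 genes were higher and 227 lower, and without replicate 3 there were 404 higher. Of 3374 genes that passed on total RNA alone in both strains, 491 (14.6%) were higher and 398 (11.8%) lower, with a median of 0.23, and the groups that follow are described over these.

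The ribosomal proteins were lower as a whole in this comparison, with 0 of 130 higher, 102 lower and a median difference of -1.57, which ranged from -1.61 to -1.0 over the alternatives. Over all tested members, the median log2 ratio to total RNA was 0.69 in the Hpr1-PrA strain and 2.27 in the untagged strain. RPS12 had 17200, 18700 and 18400 CPM in the untagged pulldowns and 762, 828 and 459 CPM in their total RNA, and its ratio was lower in the Hpr1-PrA strain by a log2 difference of -1.11 (SE 0.19, edgeR adjusted p = 3.97e-07). Whereas the ratios of single ribosomal protein genes spread widely in either strain, their differences between strains were alike.

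PMA1 differed in the other direction. It had 420, 521 and 383 CPM in the untagged pulldowns and 1540, 1400 and 1740 CPM in their total RNA, so its mRNA was higher than total RNA with the tag and lower without it. The difference of log2 ratios was 3.66 (SE 0.24, edgeR adjusted p = 3.85e-49). The test pools information on spread over genes, so this p-value does not measure the spread of PMA1 between replicates alone. The median difference was 1.31 for 28 plasma membrane transporters (15 higher, 1 lower) and 0.78 for 30 cell wall and surface proteins (12 higher, 1 lower). RNR1, the large subunit of ribonucleotide reductase, had 396, 463 and 223 CPM in the Hpr1/Yra1 pulldowns, against 32.3, 0 and 0 CPM in the untagged pulldowns and 69.6, 61.5 and 61.7 CPM in total RNA of the untagged strain. MFT1 and SCR1 also had higher ratios in the Hpr1-PrA strain, by log2 differences of 2.24 (SE 0.37, edgeR adjusted p = 4.73e-08) and 1.99 (SE 0.25, edgeR adjusted p = 4.9e-13). Among 12 tRNA genes 10 were higher and 0 lower.

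Among groups with a negative median ratio to total RNA with the tag, cyclins and cell cycle regulators had a median difference of 1.08, and 5 of 29 differed upwards and 0 downwards, a share close to the 14.6% over all such genes. Ras, TOR and protein kinase A signalling had a median difference of 1.08, and 7 of 33 differed upwards and 0 downwards. The median difference was 0.30 for 77 ribosome biogenesis factors (11 higher, 6 lower), against 0.23 over all genes, and -0.77 for 20 aminoacyl-tRNA synthetases (1 higher, 5 lower). Over all tested synthetases the median difference was -0.71, and it ranged from -0.74 to -0.15 over the alternatives. SUB2 had a lower ratio with the tag than without it, by a log2 difference of -1.57 (SE 0.29, edgeR adjusted p = 1.66e-06). SSS1 was at 38.4, 21.4 and 81.2 CPM in the Hpr1/Yra1 pulldowns, against 162, 352 and 248 CPM in the untagged pulldowns, and its log2 difference was -3.16 (SE 0.44, edgeR adjusted p = 3.75e-11).

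**Figure D4:**
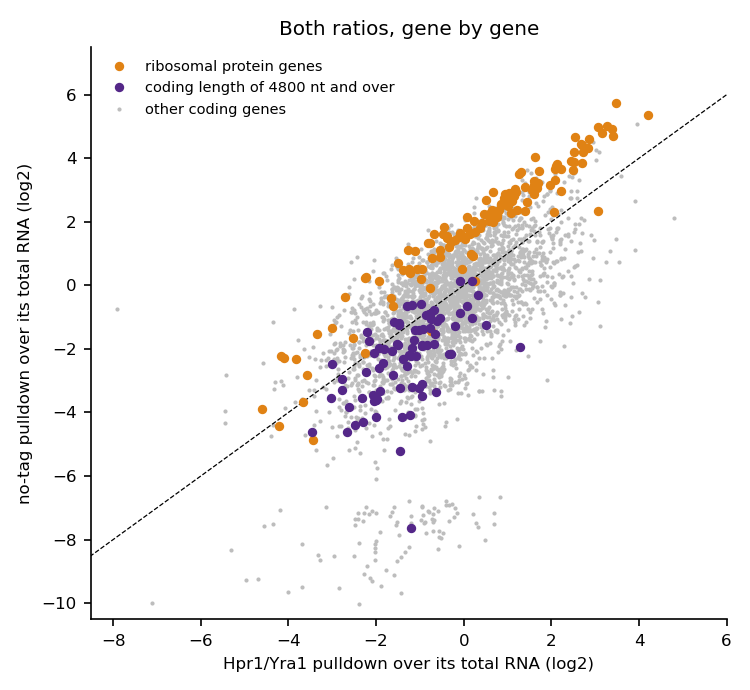
Log2 ratio of pulldown to total RNA in the Hpr1-PrA strain (x axis) and in the untagged strain (y axis) for each coding gene tested in both, with the line of equal ratios dashed. Most ribosomal protein genes (orange) lie in a band above the line, with a median difference of -1.57, and most genes of 4800 coding nucleotides and over (purple) lie below it. Points below -6 on the y axis are fitted values of genes with at most 1 count in the 3 untagged pulldowns together.

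By coding length, the difference between strains ran the opposite way from the ratio in the Hpr1-PrA strain. The medians of -0.06 under 600 nucleotides and -1.22 at 4800 and over with the tag stood against 0.99 and -2.05 in the untagged strain, a steeper slope. The median difference was thus -1.14 for genes under 600 nucleotides, of which 8 were higher and 219 lower, and 0.91 for genes of 4800 and over, of which 23 were higher and 0 lower. Over the alternatives these medians reached -0.58 and 1.45. For genes of 600 to under 1200 nucleotides the median of -0.20 turned to 0.35 when scaled by total gene counts. IRA2 had 32.3, 28.2 and 22.5 CPM in the untagged pulldowns, and its ratio was higher with the tag by a log2 difference of 1.80 (SE 0.62, edgeR adjusted p = 0.019). For TAO3, with 1 count in the untagged pulldowns, the difference was 2.89 (SE 1.15, edgeR adjusted p = 0.0493), a fitted value that depends on the prior count.

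**Figure D5:**
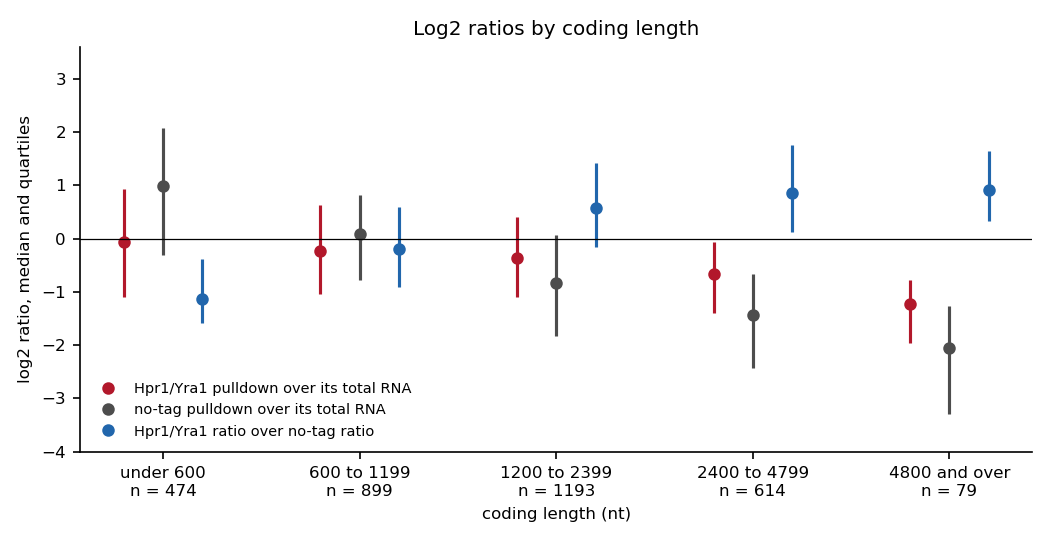
Median and quartiles of 3 log2 quantities for 3259 genes grouped by coding length in nucleotides, namely Hpr1/Yra1 pulldown over total RNA (red), no-tag pulldown over total RNA (grey) and the difference of these log2 ratios (blue). Red medians run from -0.06 to -1.22 with length and grey medians from 0.99 to -2.05, so that the blue medians run from -1.14 to 0.91.

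The Cbp80/Yra1 pulldown, taken through the nuclear cap-binding complex, was the other tagged purification used for comparison. It was deeper, with 257286 to 459999 gene counts. Of 5261 genes tested for a difference between the ratios, 700 (13.3%) had a higher ratio with Hpr1 and 687 (13.1%) a lower one, with a median of -0.04. Of 3862 genes that passed on total RNA alone in both strains, 672 (17.4%) were higher and 492 (12.7%) lower, with a median of 0.14, and groups are given over these. Of 46 box snoRNAs 0 were higher and 38 lower with Hpr1 than with Cbp80, with a median difference of -2.16. Ribosome biogenesis factors showed the reverse, with 45 of 77 higher, 0 lower and a median of 1.15, as for ECM16, an RNA helicase of the small subunit pathway, at a log2 difference of 2.79 (edgeR adjusted p = 5.62e-09). ECM16 was still below total RNA in the Hpr1/Yra1 pulldown, at 358, 377 and 437 CPM against 720, 643 and 759 CPM. PMA1 had a ratio higher with Hpr1 than with Cbp80 by 2.11 on the log2 scale (edgeR adjusted p = 4.56e-09) and YRA1 by 2.29 (edgeR adjusted p = 7.78e-06), whereas HPR1 had a lower one, by a log2 difference of -1.28 (edgeR adjusted p = 0.00643). The difference for HPR1 is uncertain, because the gene carries the tag in the Hpr1-PrA strain only. Of 19 tRNA genes 0 were higher and 4 lower, with a median of -0.05.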

How the data were processed

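Cells of 3 biological replicates per group gave pulldown and total RNA libraries, made with the QuantSeq 3′ tag kit, which primes with oligo(dT). The deposited table holds counts per gene: the authors trimmed reads, removed ribosomal RNA reads, aligned with STAR 2.7.10a, collapsed unique molecular identifiers with UMI-tools 1.0.1 and counted with HTSeq 2.0.2, per the submitters' processing notes. Coordinates are those of build R64, whose gene models here hold no UTRs. Rows that name no gene, among them reads outside genes (41.5% of all pulldown counts and 48.3% of all total RNA counts), stayed out of totals and tests.

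Genes were filtered by group (filterByExpr) and tested with edgeR 4.0.16 (R 4.3.3, TMM, robust quasi-likelihood F test) on the 6 Hpr1-PrA libraries. The replicate number was a block, because the protocol takes total RNA from the lysate of the pulldown. Deviations of same-numbered libraries from their group means correlated by only 0.005 to 0.046 over 3640 genes. Differences of ratios between strains were the interaction of kind and strain in 12 libraries. P-values were adjusted by Benjamini and Hochberg over all genes tested. SE is that of the log2 fold change. Class shares were compared by exact permutation tests. Intervals and floors cover counting error only.

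The genes named are the 10 highest and 10 lowest called genes whose groups did not overlap and whose mean over the 6 libraries reached 20 CPM, up to 2 called members of each gene list in each direction, the 5 highest and 5 lowest differences between strains, and a fixed set of export factors and long genes. The lists and the genes read were chosen with earlier results of these data known. Alternatives were other scalings (DESeq2 size factors, total counts), no count filter, DESeq2 1.42.0, no block, a test against the fold threshold, all 30 libraries in 1 fit and leaving out each replicate.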

Additional observations from a re-analysis of the deposited data

Results flagged for a closer look

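The difference between strains in the ratio of pulldown to total RNA was itself past the test's threshold for 642 genes upwards and 432 downwards against the untagged strain, and for 700 upwards and 687 downwards against the Cbp80-PrA strain (edgeR interaction test, adjusted p under 0.05 and log2 difference above 1 or below -1). The genes with the largest differences are given by the naming rule.

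Against the untagged strain, the highest fitted log2 differences were 9.38 for the tRNA gene YNCP0001C, 8.59 for AIF1, 8.45 for NTH1, 8.32 for VLD1 and 8.20 for SSD1. These 5 had 0 counts in all 3 untagged pulldowns, so that the fitted values depend on the prior count and bound nothing. The lowest were -7.08 for GNA1, which had 0 counts in the Hpr1/Yra1 pulldowns, -3.74 for AIM34, -3.62 for URA6, -3.28 for DPH2 and -3.24 for GLE2, which encodes an mRNA export factor at the nuclear pore. GLE2 had 0, 14.2 and 20.3 CPM in the Hpr1/Yra1 pulldowns, against 48.5, 84.5 and 67.6 CPM in the untagged pulldowns, while the total RNA of the strains was alike at 82.2, 68.5 and 83.1 CPM in the Hpr1-PrA strain and 71.5, 56.9 and 57.4 CPM in the untagged strain.

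Against the Cbp80-PrA strain, the highest log2 differences were 2.95 for YMR030W-A, 2.82 for ECI1, 2.81 for EFT1, which has a near-identical copy, 2.79 for SMC3, a cohesin subunit, and 2.79 for ECM16. The lowest were -7.38 for DAL7, -7.34 for CPD1, -6.21 for COS7, which has near-identical copies, -6.08 for CMI8 and -6.04 for SDH6, fitted values of genes with few or no counts in the Hpr1/Yra1 pulldowns.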

How the results depend on the processing

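For the Hpr1/Yra1 pulldown against total RNA, other scalings, no filter, DESeq2, all 30 libraries in 1 fit and leaving out a replicate gave 963 to 1223 genes higher and 904 to 1276 lower, and no call turned to the opposite one under any alternative. Without the replicate block 1129 were higher and 1018 lower. Testing against the fold threshold left 592 lower, and counting only genes that passed on total RNA, added after the data were seen, left 525 higher. In the untagged strain, total counts gave 457 higher and 1602 lower and the fold threshold 466 and 646, against 717 and 1053. For the difference from the untagged ratio, total counts gave 1249 higher and 147 lower, the fold threshold 194 and 101, DESeq2 303 higher, and leaving out a replicate 235 to 444 higher and 227 to 362 lower. Upward calls made up 59.8% of calls with TMM and 89.5% with total counts. For the difference from the Cbp80 ratio, the fold threshold gave 150 higher and 180 lower, and leaving out a replicate 445 to 578 lower. Of the named genes' values under alternatives, 1643 kept direction and call, 11 lost the call, 5 gained it and 0 reversed. Medians of gene lists were less stable, with 367 values classed as the same and 62 as moved, the latter in 27 results. For counts of called genes, 91 values were classed as the same and 17 as moved. The pulldown depth limits genes under 33.5 CPM, and the untagged pulldowns, the shallowest, limit the differences from background.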
